A study of Rattus norvegicus with 20 samples.

Results

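The stomach library of this series is 1 pool of miRNA from the stomachs of 3 male rats of the Long Evans strain, aged postnatal day 35 and given no treatment, and it is set here against 14 other tissues of rats of the same strain, sex, age and treatment. Of the 20 small RNA libraries of the series, 1 was the stomach pool, 13 were pools of other tissues made in the same way, 3 were brain hemispheres of single rats and 3 were serum libraries, which were left out. The other pools were subcutaneous abdominal fat, heart, kidney, large intestine, liver, lung, skeletal muscle, pancreas, skin, small intestine, spleen, testes and thymus. The animals served the study as untreated controls for a tissue map of miRNA levels. Because the stomach was sequenced once, from pooled animals and from the organ without separation of its layers or regions, its values have no replicates, no test between tissues was possible, and all intervals cover counting error only. A lower share of a cell type in the pool and less of a miRNA per cell cannot be told apart in such data.

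MicroRNAs are short RNAs, cut from a hairpin precursor, that pair through their seed (bases 2 to 8) with messenger RNAs and lower their translation and stability. The wall of the stomach is a mucosa of glandular epithelium with endocrine cells, surrounded by a thick coat of smooth muscle, and in rats the upper part of the organ, the forestomach, is lined by stratified squamous epithelium like that of skin. Several miRNAs are known from these layers, among them mir-143 and mir-145 from smooth muscle, the mir-200 family and mir-375 from glandular and endocrine epithelium, mir-203 and mir-205 from stratified epithelium, and mir-192, mir-194 and mir-215 from absorptive epithelium of the intestine.

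The mature sequences below are those on which the results turn. They are written 5′ to 3′ with the seed in capitals, from RefSeq for the rat assembly GRCr8, and positions are not given because the authors aligned to another build, Rn5. The first pair is the leading miRNA of the pool and its neighbour, which do not share a seed, and both genes lie within the long noncoding RNA gene Carmn.
miR-143-3p: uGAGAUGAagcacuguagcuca
miR-145-5p: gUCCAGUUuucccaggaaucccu
The second set had the largest differences from the tissue median. The gene of miR-490 lies within Chrm2, the gene of a muscarinic acetylcholine receptor of smooth muscle and heart.
miR-490-3p: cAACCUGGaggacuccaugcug
miR-205: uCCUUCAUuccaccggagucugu
miR-375-3p: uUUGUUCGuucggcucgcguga
miR-203a-3p: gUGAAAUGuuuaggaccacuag
The third set separates stomach from intestine. miR-192-5p and miR-215 share the seed UGACCUA, and their genes each lie beside a copy of the gene of miR-194-5p.
miR-192-5p: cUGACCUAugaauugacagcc
miR-215: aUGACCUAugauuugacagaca
miR-194-5p: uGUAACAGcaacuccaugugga
The fourth is a pair from the mir-200 family with neighbouring genes and different seeds.
miR-141-3p: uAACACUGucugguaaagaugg
miR-200c-3p: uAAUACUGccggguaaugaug

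The stomach library held 794135 reads on 444 miRBase precursors, so that 3 reads, taken as the floor, corresponded to 3.78 reads per 1000000 precursor reads (RPM). The other pools held 162080 to 3685761 reads and the brain libraries 388275 to 1204552. Levels are given as RPM of all precursor reads of the library and are shares of reads and were not divided by length, so that shares of different precursors are compared as reads only. In stomach 284 precursors had a read, 171 had at least 10 and 109 reached 100 RPM, the last within the 98 to 179 of the other libraries. The library labelled pancreas held the liver miRNA mir-122 at 14862 RPM and no read of the pancreas miRNAs mir-216a and mir-217, so it goes against its label. The main counts were also taken without it, and so were the counts of the lists, which are given below where they change.

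A single precursor, mir-143, made up most of the stomach library. It had 485933 of the 794135 reads, or 61.2% (95% Wilson interval 61.1 to 61.3%). The next highest tissues were the large intestine at 31.7% and the small intestine at 30.8%, followed by spleen at 17.3%, heart at 16.7%, thymus at 14.4%, fat at 12.9%, lung at 12.8%, skin at 12.8%, testes at 9.87%, skeletal muscle at 6.70%, pancreas at 6.25%, kidney at 5.33%, liver at 4.89% and brain at 2.46% ± 0.256 (SD, n = 3). On the precursor list all 3 muscular organs of the gut thus stood above the other 12 tissues, with stomach first by a wide margin. That list lacks mir-215 by that name, which took 503409 RPM of the RefSeq reads of the small intestine. The small intestine had 468515 precursor reads and 906313 RefSeq reads. Its mir-143 share, its place in the order and its ratio to stomach therefore hold for the precursor list only. The same goes for the other small intestine levels below, and for stomach ratios and differences to them, unless RefSeq is named. Below the gut pools only fat, lung and skin had intervals that overlapped those of their neighbours in the order. The ratio of stomach to large intestine was 1.93 (exact 95% interval 1.92 to 1.93) and that to small intestine 1.99 (1.98 to 2.00). The large intestine count was deposited to 3 significant digits only, so its interval is narrower than its rounding. By its leading precursor no other tissue library was as concentrated on this list, which leaves out mir-215, as the leading precursor of each took 8.70 to 32.4% of its reads. On the log2(RPM + 1) scale mir-143 was 2.26 above its median over the 15 tissues. The stomach share was much the same in the other annotations of the same reads, at 64.15% of RefSeq reads and 68.7% of reads on mature miRNAs, where it was carried by miR-143-3p.

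**Figure D1:**
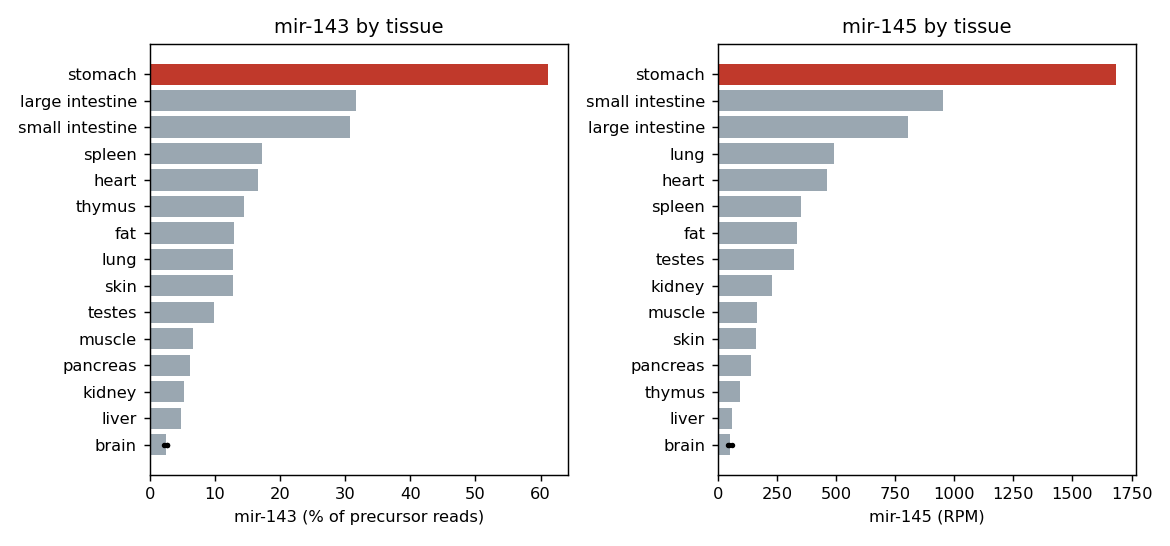
Share of precursor reads taken by mir-143 (left, percent) and level of mir-145 (right, RPM) in each of 15 tissues, with 1 library per bar except brain, whose bar is the mean of the 3 libraries drawn as dots. Stomach (red) is highest for both, at 61.2% and 1686 RPM, with the intestine pools next on this list, which lacks mir-215 by that name.

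mir-145, the other smooth muscle miRNA, was also highest in stomach, followed on the precursor list by the intestine pools in the reverse order. On RefSeq the large intestine came next, at 787 RPM against 1768 in stomach. It had 1339 stomach reads, or 1686 RPM (95% Wilson interval 1598 to 1779), against 952 RPM in the small intestine, 806 in the large intestine, 490.4 in lung, 462 in heart and 351.4 in spleen. The remaining tissues lay between 333 RPM in fat and 49.98 in brain, with a median over all 15 of 321, so that stomach was 2.39 above the median on the log2 scale. The stomach value was 2.09 times that of the large intestine (exact 95% interval 1.96 to 2.23). It was 1.77 times that of the small intestine (1.59 to 1.98), a ratio and a place that hold for the precursor list only, which lacks mir-215. Within a library the ratio of the pair does not depend on the scaling, and mir-145 reads were 0.276% of mir-143 reads in stomach (0.261 to 0.291%), against 0.309% in the small intestine, 0.254% in the large intestine, a median of 0.254% over the 15 tissues, and extremes of 0.0653% in thymus and 0.429% in kidney. The ratio in stomach was thus sixth of 15, in the middle of the tissues, while both levels were first.

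mir-143 and mir-145 were the only precursors with their highest level in stomach, 2 of 295, or 0.678%. These 295 are the precursors with at least 10 reads in at least 3 of the 17 tissue libraries. For both, the Wilson intervals of stomach and of the next tissue did not overlap, and both were also the 2 highest in stomach in the RefSeq and the mature lists and without the pancreas pool. The count moved with the scaling of the libraries. It was 6 with the TMM factors of edgeR, which added mir-152, mir-221, mir-320 and mir-582, and 3 with the size factors of DESeq2, which added mir-582. Leaving mir-143 out of all totals made it 5, namely mir-141, mir-145, mir-26b, mir-320 and mir-365.

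Because mir-143 took so large a share, every other precursor of the stomach library was scaled against what it left. Leaving mir-143 out of the totals multiplied stomach levels by 2.58. On the RPM scale 48 of the 295 precursors, 16.3%, stood at least 1 (log2, that is, 2-fold) above their median over the 15 tissues in stomach, and 80, or 27.1%, stood at least 1 below it, with a median difference of −0.20 over all 295. Without mir-143 in the totals, 100 of 294 were above and 21 below, and the median difference was 0.46. TMM gave 89 above and 24 below with a median of 0.35, and DESeq2 size factors gave 74 and 35 with a median of 0.08. Without the pancreas pool the counts were 40 above and 81 below, or 94 and 23 with mir-143 also left out, while the TMM and DESeq2 counts were taken with it only. Since these alternatives move most stomach levels upward, calls above were bound to stay more often than calls below, and the counts of calls kept are a description. Of the 48 above, 47 stayed above with mir-143 left out and all 48 did under TMM and under DESeq2 size factors. Of the 80 below, 20 stayed below with mir-143 left out, 23 under TMM and 34 under DESeq2 size factors, and 20 in all 3. Among the 80 were 36 precursors with fewer than 10 stomach reads, 11 of them with none, and 15 of the 48 also had fewer than 10. Differences below are on the RPM scale, followed where it matters by the value with mir-143 left out.

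The largest difference above the median was that of mir-490, at 5.48 on the log2 scale. Its median tissue is skin, at 2.66 RPM from 2 reads, under that pool's floor of 3.98 RPM, so the size of the difference rests on the 1 RPM added. With 10 RPM added mir-490 was at 3.77, below mir-205 at 4.51. It rested on 129 stomach reads, or 162 RPM (95% Wilson interval 137 to 193). Heart was higher, at 590.3 RPM, and brain stood at 121, the large intestine at 44.2 and the small intestine at 40.6 RPM. Lung followed at 12.5 RPM, liver, skin and kidney had at most 3.05, and 6 pools (fat, pancreas, skeletal muscle, spleen, testes and thymus) had no read, against whose floors of 3 reads stomach was at least 8.78-fold to 68.2-fold higher. The reads of mir-490 were thus found in heart, stomach, brain and both intestines and were few elsewhere. The stomach level was 4.01 times that of the small intestine (exact interval 2.46 to 6.87) and 3.67 times that of the large intestine (2.89 to 4.66).

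The miRNAs of stratified epithelium were the next group, and both tested members were at least 1 above the median, where 16.3% of all 295 precursors were. mir-205, which is known from squamous and basal cells, had 792 stomach reads, or 997 RPM (95% Wilson interval 930.3 to 1069), and only skin was higher, at 9133 RPM. It was at 419 RPM in fat, 184 in thymus, 153 in the large intestine, 105.6 in skeletal muscle, 74.4 in lung and 34.2 in the small intestine, and the other 7 tissues had at most 6.17, with no read in heart and pancreas. Stomach was 4.83 above the median. It was 6.52 times the large intestine (exact interval 5.84 to 7.27) and 29.2 times the small intestine (17.9 to 51.3), and 0.109 of skin (0.101 to 0.118). Among precursors above both intestine pools, the smaller of the 2 differences was largest for mir-205, at 2.70 on the log2 scale.

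mir-203a, known from the differentiating layers of squamous epithelium, had 2698 stomach reads, or 3398 RPM, second to skin at 40295 RPM and 2.84 above the median. On the precursor list only, which lacks mir-215, the small intestine, at 3077 RPM, was close to it, with a ratio of 1.10 (1.04 to 1.18). The large intestine stood at 1680.2 RPM. The pair therefore differed in its contrast with the intestine. In reads of the same library, mir-205 was 29.4% of mir-203a in stomach (27.1 to 31.8%), 22.7% in skin, 9.11% in the large intestine and 1.11% in the small intestine. mir-203b, the third listed member, had under 1 stomach read and was not among the 295.

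Of the gland and endocrine miRNAs fixed as a list, mir-375, known from endocrine cells of gut and pancreas, had 3373 stomach reads, or 4247 RPM, and was 3.10 above the median. It was higher in the large intestine at 18328 RPM, in lung at 11499 and in the small intestine at 7359, and testes stood next to stomach at 4128. Stomach was 0.232 of the large intestine (0.224 to 0.240) and 0.577 of the small intestine (0.550 to 0.605). mir-148a, known as abundant in glandular epithelium, was at 31959 RPM, behind only mir-143, mir-10a and mir-27b in this library, and was 0.79 above its median and below fat, liver, pancreas and skin. Its ratio to skin was 0.985 (0.968 to 1.00), so the 2 could not be told apart. The 2 copies of mir-7a had 4 and 3 stomach reads.

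All 5 members of the mir-200 family, which maintains epithelial identity, were tested, and 4 were at least 1 above their medians, against 16.3% of all 295, with a median difference of 1.46 for the family against −0.20 for all. Without the pancreas pool 2 of the 5 were above, with a median of 0.96. With mir-143 left out all 5 were above with and without that pool, as were 34.0% of all precursors over the 15 tissues. mir-141 was highest by difference, at 2.26, with 2618 reads or 3297 RPM, and lay below the large intestine at 5206, skin at 3792, thymus at 3509 and lung at 3399 RPM. mir-200c was 1.51 above its median on 29 reads, mir-200a 1.46 on 575, mir-200b 1.16 on 888 and mir-429 0.84 on 693 reads. The 5 differences ran from 1.98 to 3.54 with mir-143 left out, and stomach was then the highest tissue for mir-141, though not when mir-192 was left out as well. The summed level of the family was 6048 RPM in stomach against 9434 in the small and 15432 in the large intestine. Its members did not stand alike against the intestine. mir-200b, mir-200c and mir-429 were at least 1 below both intestine pools, at −1.79, −2.54 and −1.003 against the small and −2.05, −1.61 and −1.90 against the large intestine, while mir-141 was 0.32 above the small intestine and 0.66 below the large.

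mir-192 and the 2 copies of mir-194, the miRNAs of absorptive epithelium, liver and kidney, were above their medians and far below the intestine at the same time. mir-192 had 10248 stomach reads, or 12905 RPM, sixth of 15 tissues and 2.04 above the median. The 5 tissues above it were the small intestine at 324177, pancreas at 232017, liver at 228719, the large intestine at 202869 and kidney at 121188 RPM. The next below was brain at 3545, so the tissues fell into a high set of 5, stomach alone, and a low set. The high set counts the pancreas pool, which goes against its label and may not be a separate tissue. Stomach was 0.0398 of the small intestine (0.0390 to 0.0406) and 0.0636 of the large intestine (0.0624 to 0.0649). mir-194-1 and mir-194-2 had 85 and 115 stomach reads and were 7.06 and 6.33 below the small and 4.69 and 4.35 below the large intestine on the log2 scale. The copies share their mature sequence, so the counting may have split reads between them, and they are not separate results. mir-215 is not in the precursor list by that name and is given further on from RefSeq.

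**Figure D2:**
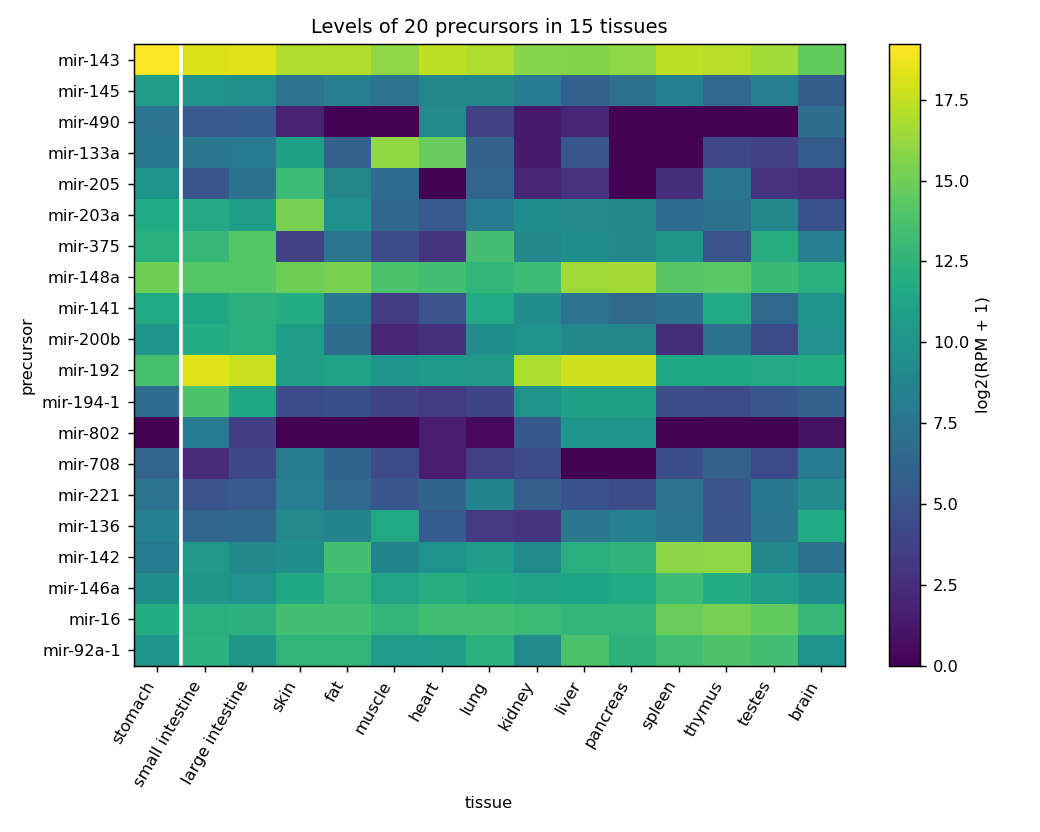
Levels of 20 precursors (rows) in 15 tissues (columns), as log2(RPM + 1) by colour, with the stomach pool left of the white line. mir-143 and mir-145 are brightest in stomach, mir-205 and mir-203a are shared with skin, mir-490 with heart and brain, and mir-192 and mir-194-1 are far lower in stomach than in both intestine pools.

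Other lists placed the pool relative to tissues it could hold. Of the striated muscle miRNAs, mir-1, mir-206 and mir-208a had no stomach read, which allows up to 3.78 RPM each by the floor, and mir-208b had 1 and mir-499 had 14. mir-133a, which smooth muscle also expresses, had 177 reads, or 223 RPM, 1.94 above the median and next to both intestines, at 196 RPM in the small (ratio 1.14, interval 0.877 to 1.48) and 224 RPM in the large intestine (0.995, 0.841 to 1.17). The nearness to the small intestine holds for the precursor list only, which lacks mir-215. mir-133a was at 68920.0 RPM in skeletal muscle and 27262 in heart. The related mir-133b was 2.65 above its median on 15 reads. mir-122 had 2 reads, mir-217 had 1, and the erythroid mir-451 and mir-144 had 15 together, fewer than the 10 reads each that were used as a minimum. Of the 17 neural precursors 5 were above (4 without the pancreas pool) and 2 below, where 16.3% and 27.1% of all 295 were. Among those above, mir-124-2, mir-129-2 and mir-219a-2 had at most 1.76 stomach reads, under the floor of 3. Their calls rest on the 1 RPM added, and the count above is a description only. Of the 2 below, mir-128-1 had 36 reads and mir-128-2 none. mir-153 was 2.37 above on 17 reads, second to brain at 956 RPM. The sensory cluster of mir-183, mir-96 and mir-182, also known from epithelia, was 1.78, 0.58 and 1.54 above its medians, with mir-182 at 8160 RPM in stomach against 5502 in the small and 9536 in the large intestine. The mesenchymal mir-199a and mir-214 were 0.35 and 0.60 above theirs.

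The leukocyte list had the lowest median difference of the 21 lists, at −1.68. Of its 6 members, 5 were at least 1 below their medians, where 27.1% of all 295 precursors were, namely mir-142 at −1.84, mir-150 at −1.71, mir-146a at −1.71, mir-223 at −1.66 and mir-146b at −1.40, and mir-155 was at 0.02. Of these, mir-223 and mir-155 had 6 and 8 stomach reads, under the minimum of 10. The summed level of the 6 members, 1803 RPM, was the lowest of the 15 tissues, whose median was 7305 and whose highest, in spleen, was 75178. mir-142, present in most blood cells, was at 261 RPM in stomach, 491 in the large and 1325 in the small intestine, and only brain, at 138, was lower. Without mir-143 in the totals none of the 6 was at least 1 below, their differences ran from −0.74 to 1.22, and only the direction of the 5 remained.

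The lists of widely expressed and proliferation miRNAs, and the list of mir-34 and mir-449, behaved in the same way. At least 1 below their medians were 4 of 5 of the mir-30 family, 4 of 6 of the mir-15 and mir-195 family, 6 of 12 of the mir-17-92 and mir-106b-25 clusters, which are tied to dividing cells, and 4 of 5 of the mir-34 and mir-449 family, with none above in any of them, against 27.1% of all 295. These counts were 0, 0, 2 and 0 with mir-143 left out, where 21 of 294 of all precursors, or 7.14%, were below. The median differences, from −1.08 to −1.30 on the RPM scale, were then −0.36 to 0. Without the pancreas pool 3 of 5, 5 of 6, 6 of 12 and 4 of 5 were below. mir-92a-1, which shares its mature sequence with mir-92a-2, kept its side under each of these scalings. It had 765 reads, or 963 RPM against a median of 5048 RPM, and was 2.39 below on the RPM scale and 1.27 below with mir-143 left out, 1.35 under TMM and 1.49 under DESeq2 size factors. It did not separate stomach from the large intestine, where it was at 1141 RPM. The mir-23, mir-27 and mir-24 clusters and the mir-29 family had no member past 1 in either direction on the RPM scale. Of the former, 4 of the 6 members were above with mir-143 left out, as were 34% of all precursors. In the endothelial list mir-126a, at 3815 RPM, was 1.66 below its median (0.39 below with mir-143 left out), and mir-221 was 1.26 above. Of the mir-10 pair of the Hox clusters, mir-10a was the second precursor of the library at 51207 RPM, 0.72 above its median, and mir-10b was at its median. Of the 5 tested members of that list 1 was at least 1 below, where 27.1% of all 295 were. Without the pancreas pool 2 were, where 81 of all 295 were.

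**Figure D3:**
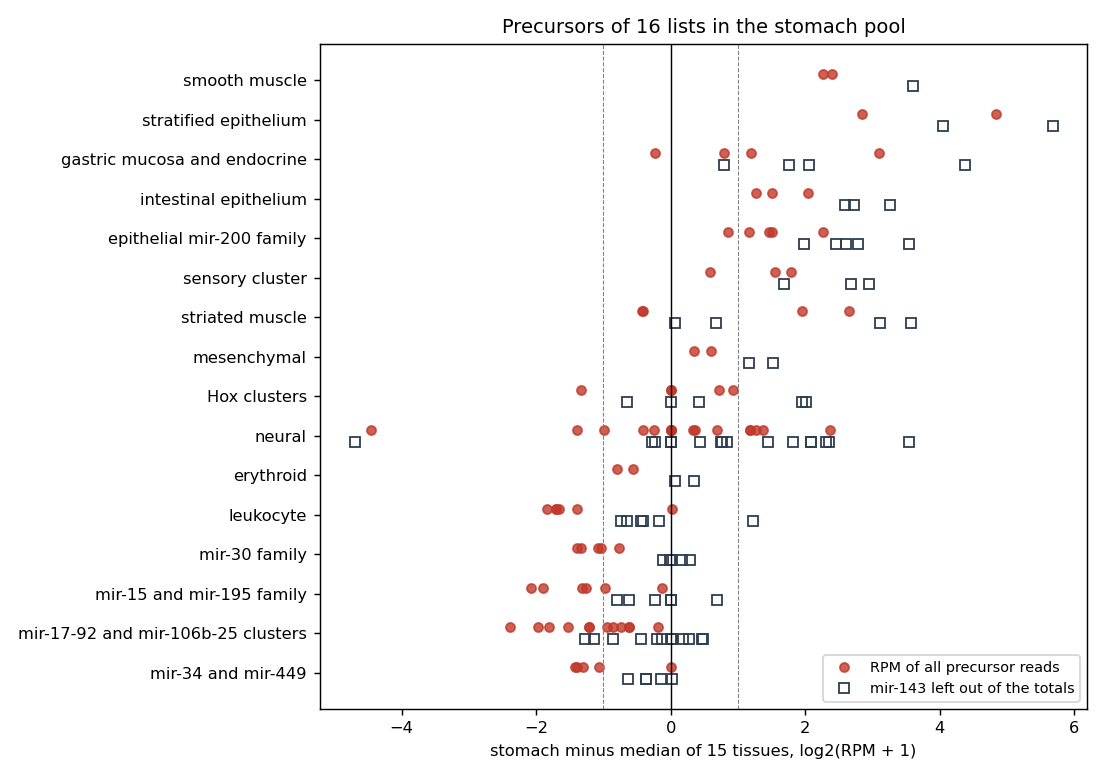
Difference between the stomach pool and the median of 15 tissues on the log2(RPM + 1) scale, with 1 mark per tested precursor of 16 lists, on the RPM scale (red circles) and with mir-143 left out of the totals (open squares), and dashed lines at −1 and 1. The upper lists, from smooth muscle to the mir-200 family, lie above 0 on both scales, except that the gastric mucosa and endocrine list begins at −0.24 on the RPM scale. The medians of the leukocyte, mir-30, mir-15, mir-17-92 and mir-34 lists move from between −1.68 and −1.08 to between −0.43 and 0, with single members further out.

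Of the 10 precursors furthest below the median, only mir-92a-1 had more than 3 stomach reads. mir-128-2 was at −4.45 with no stomach read, against 3489 RPM in brain and 1836 in thymus, so that stomach was at least 924-fold below brain and 486-fold below thymus. mir-128-1, which gives the same mature miRNA, had 36 stomach reads, and reads of the pair may have been divided by the counting. mir-881 and mir-201, which had no stomach read, are miRNAs of testes here, at 21533 and 5960.0 RPM. The 12 precursors of the mir-322, mir-503, mir-542, mir-450 and mir-351 cluster were noticed in these values and chosen after they were seen. All 12 were at least 1 below their medians, with a median of −1.70, where 27.1% of all precursors were. Of the 12, 3 remained at least 1 below with mir-143 left out and 11 had a negative difference, and under TMM 5 and under DESeq2 size factors 7 remained, all 12 being negative in both. The summed level of the cluster was 684 RPM in stomach, 406 in the small and 548 in the large intestine and 744 in thymus, against 1528 to 11473 RPM in the other 11 tissues, so the gut pools and thymus formed its low end. Several of these precursors are listed as copies that share mature sequences. The copies of mir-322 were also counted above with the mir-15 and mir-195 family, so the 2 counts are not separate.

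Against the 2 intestine pools 39 of 295 precursors (13.2%) were at least 1 above both and 26 (8.81%) at least 1 below both. Fewer than 10 stomach reads lay behind 13 of the 39 and 18 of the 26. The median difference was 0.07 against the small and 0.20 against the large intestine. These pools have a second dominant precursor, mir-192, with 32.4 and 20.3% of their reads. With both mir-143 and mir-192 left out of the totals the counts were 51 and 24, with mir-143 alone left out 95 and 15, with TMM 40 and 30, and with DESeq2 size factors 30 and 37. The likeness was greatest with the large intestine, with Pearson's r of 0.946 over the log2 levels of the 295 precursors, followed by the small intestine at 0.924, skin at 0.920 and fat at 0.901, down to brain at 0.699. By Spearman's rho the large intestine was again first, at 0.927, and skin, at 0.904, came before the small intestine, at 0.901. These are descriptions across precursors, which share libraries and are not replicates. On levels centred on the tissue medians the order began again with large intestine at 0.516, small intestine at 0.397 and skin at 0.303, and spleen was last at −0.32.

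Above both intestine pools, after mir-205, stood mir-708, with 61 reads or 76.8 RPM against 4.27 in the small and 16.6 in the large intestine, in a gene within Tenm4, and highest in skin at 282 RPM. The stomach ratio to the large intestine was 4.64 (3.20 to 6.73). mir-221, a miRNA of vessels and proliferating cells, had 133 reads or 167 RPM against 32.0 and 41.2, with ratios of 5.23 (3.06 to 9.61) and 4.06 (3.19 to 5.16). mir-99a was at 370.2 RPM against 87.5 and 69.7, although it was 0.41 below its 15-tissue median. Here the intestine pools were among the low tissues, and thymus, with 28 reads, was lower still. mir-365 and mir-193a had 17 and 15 reads, and mir-879 and mir-672 had 15 and 23. mir-143 was 0.99 and 0.95 above the small and large intestine and so just outside the count.

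Also above both was a set of miRNAs of the imprinted Dlk1-Dio3 interval, which placental mammals express from the maternal chromosome and which is known from brain, muscle and mesenchymal cells. The interval, taken from the RefSeq gene table, was looked at as a whole after mir-136, mir-434-1 and mir-431 appeared among the largest differences. Of its 43 tested precursors 15 were at least 1 above both intestine pools (34.9%, against 13.2% of all 295) and 1 was below both. mir-127 was at 1507 RPM against 495 in the small and 642 in the large intestine, mir-411 at 841 against 139 and 279, and mir-136 at 345 against 76.8 and 82.8 RPM. mir-434-2, which that table does not list in the interval by this name and which is outside these counts, was at 233 against 59.8 and 58.6 RPM. The ratios of mir-136 were 4.49 (3.16 to 6.55) and 4.17 (3.53 to 4.92). Summed over the interval, stomach had 3710 RPM, against 1168 and 1478 in the intestine pools, 11061 in skin, 13815 in fat, 77008 in skeletal muscle and 85752 in brain. The members come from shared transcripts, 32 of the 43 tested had fewer than 10 stomach reads, and the list was chosen with its values known, so its count is a description.

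Below both intestine pools stood, besides mir-192, mir-194 and the mir-200 members, mir-802, mir-147 and mir-130b. mir-802, known from liver, had no stomach read against 241 RPM in the small and 11.1 in the large intestine, 1018 in liver and 39.2 in kidney, so that stomach was at least 63.8-fold below the small and 2.94-fold below the large intestine. mir-147, whose gene lies in C3h15orf48, had 3 stomach reads against 79.0 and 125 RPM, with ratios of 0.0478 (0.00944 to 0.151) and 0.0303 (0.00623 to 0.0892). mir-130b was at 18.9 RPM on 15 reads against 254 and 140.3 RPM. mir-147 and mir-130b were also at least 1 below the 15-tissue median, at −1.08 and −1.27, but with mir-143 left out they were at −0.12 and −0.21. Some precursors were far below the large intestine and not the small. Among the 295 the largest such differences were those of the 2 copies of mir-196b, a miRNA of the posterior Hox clusters, and mir-10b, at −2.19 against the large and 0.50 against the small intestine, is another. The copies of mir-196b had 0 and 1 stomach reads against 476 and 502 RPM in the large intestine, and that pool was their highest tissue.

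**Figure D4:**
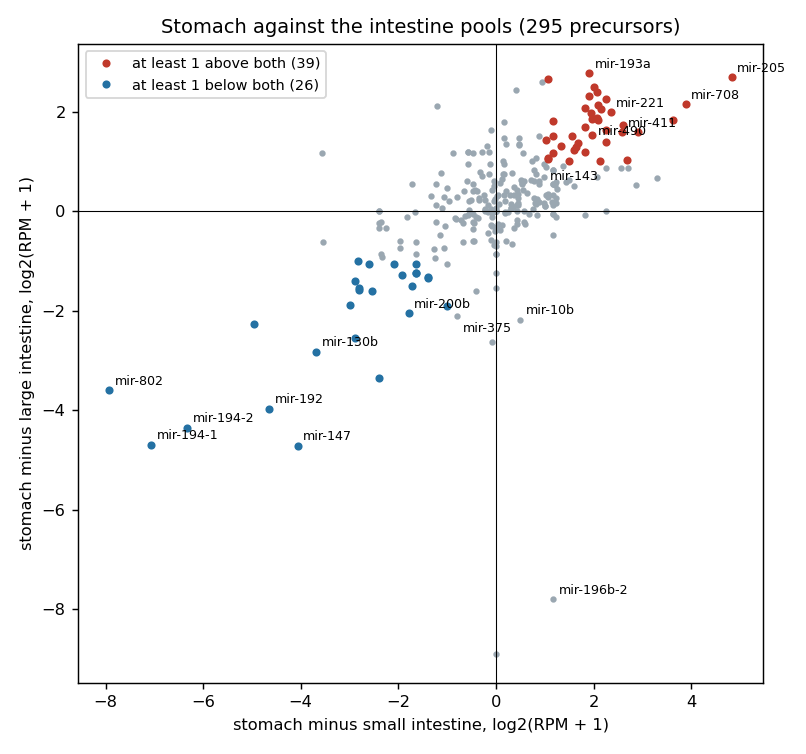
Difference of the stomach pool from the small intestine pool (horizontal) and from the large intestine pool (vertical), log2(RPM + 1), with 1 point per tested precursor. The 39 precursors at least 1 above both are red and the 26 at least 1 below both are blue, with mir-205 at the upper end and mir-194, mir-802, mir-192 and mir-147 at the lower end.

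On the precursor list the 10 most abundant precursors held 84.7% of stomach reads, against 53.4 to 83.1% in the other tissue libraries. The list lacks mir-215 by that name, which took 503409 RPM of the RefSeq reads of the small intestine, and this share was not compared on RefSeq. After mir-143 and mir-10a came mir-27b at 33336, mir-148a at 31959, let-7f-1 at 29820.0, mir-22 at 22259, mir-10b at 21563, mir-26a at 15418, mir-30a at 14995 and let-7i at 14348 RPM. None of these 9 was at least 1 above its median, and let-7f-1 at −1.29 and mir-30a at −1.03 were at least 1 below it. With mir-143 left out, mir-10a at 2.02, mir-148a at 1.76 and mir-27b at 1.17 were at least 1 above, and let-7f-1 and mir-30a were at 0 and 0.17.

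The mature list counts the same reads a second time, on arms of the hairpin, and the precursor levels cannot be read as mature levels for all of them. Of 76 precursors with at least 100 stomach reads and arms of their own name, the arms held over 80% of the precursor's reads for 38 and under 50% for 22, with a median of 80.2%. Counts on arms exceeded those on the precursor for let-7d, at 537%, and mir-3553, at 103%, so the percentage is not always a share. The share was 98.6% for mir-143, 96.1% for mir-141, 95.05% for mir-375, 92.2% for mir-205 and 89.8% for mir-10a. It was 49.8% for mir-203a, 27.4% for mir-145, 9.30% for mir-490, 6.10% for mir-148a and 0.473% for mir-10b. These low shares were not particular to stomach, since the other libraries with 100 reads gave at most 38.2% for mir-145 and 0.409 to 2.68% for mir-10b. For mir-203a stomach was the highest of the libraries, which began at 18.9%. By arm, 60 of 81 precursors with both arms listed and at least 20 reads had at least 95% on 1 arm. The share of the 5p arm lay outside the range of the other libraries for 8, among them mir-532 at 93.8% (87.2 to 97.1%) against 96.5 to 100% and mir-708 at 31.2% (17.95 to 48.6%) against 16.7 to 30.6%. For both, the interval overlapped that range.

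**Figure D5:**
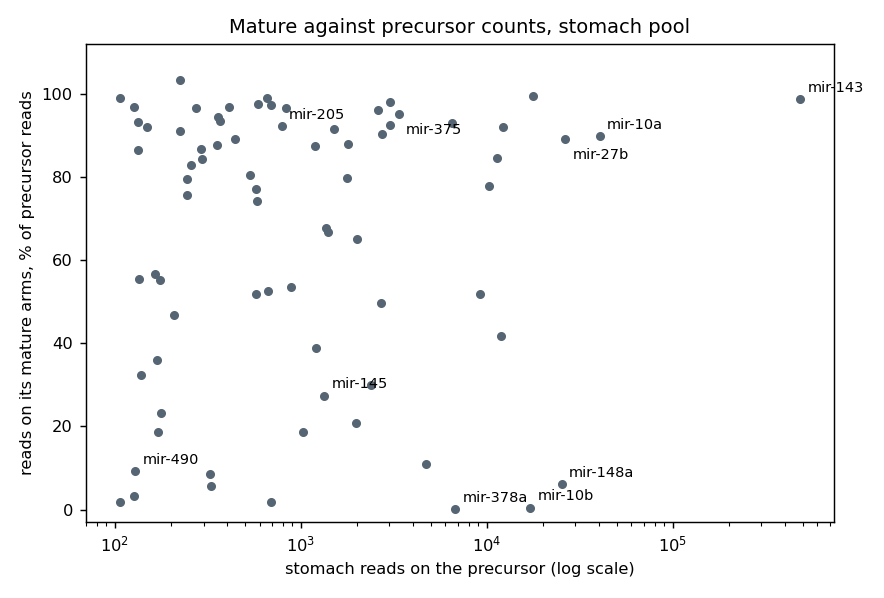
Reads on the mature arms as a percentage of the reads on the precursor (vertical) against stomach reads on the precursor (horizontal, log scale), 1 point for each of 76 precursors with at least 100 stomach reads. mir-143 lies at 98.6%, and mir-148a and mir-10b lie at 6.10 and 0.473%. The point of let-7d, at 537%, is outside the vertical axis.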

How the data were processed

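Total RNA was extracted with Qiagen reagents and sequenced on a MiSeq after TruSeq small RNA preparation. The authors trimmed base calls under phred 20, used Bowtie with the Rn5 build for alignment and Partek for quantification (versions not given in the sources used here). The values the authors deposited are expected counts (estimated counts of reads), not normalized, with 388 RefSeq, 444 miRBase precursor and 577 miRBase mature features in 1 list. The same reads were counted in each annotation. Multi-copy miRNAs carry fractional or repeated counts, and a few high counts were deposited to 3 significant digits.

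RPM was computed within the precursor list, brain was averaged over its 3 libraries, 1 RPM was added, and log2 levels were centred per precursor on the 15-tissue median. Precursors needed at least 10 counts in at least 3 of 17 tissue libraries, which left 295. With 1 stomach library there was no test. Wilson intervals (95%), exact conditional intervals of ratios and a floor of 3 reads cover counting error only. TMM factors came from edgeR 4.0.16 and size factors (positive counts) from DESeq2 1.42.0 on rounded counts, with R 4.3.3. Figures were drawn with Matplotlib 3.10.9 and levels computed with SciPy 1.17.1, NumPy 2.4.6 and pandas 2.3.3 under Python 3.11.15. The procedure was run on 20 sets of simulated counts, in each of which 60 precursors with enough expected stomach reads were changed 4-fold. Totals were held fixed, so the simulation covers neither low counts nor the effect of the mir-143 share on other levels.

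The precursors named are members of 21 lists, the 10 most abundant, those highest in stomach, the 10 furthest above and below the median and the 10 furthest from both intestine pools. The members and lists were chosen with earlier results of these data known. The Dlk1-Dio3 interval, the mir-322 cluster, mir-196b, mir-126a as a single value and the further precursors with fewer than 10 reads were named after their values were seen. Neighbouring genes and sequences are those of RefSeq for GRCr8. Alternatives covered scaling, pseudocount, filter, annotation, reference tissues, reference level, each brain library left out and the size of difference counted. Leaving mir-143, or mir-143 and mir-192, out of the totals was chosen after seeing the data, as were the list counts without the pancreas pool and the ranking with 10 RPM added. Serum was left out.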

Additional observations from a re-analysis of the deposited data

Results flagged for a closer look

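mir-215, a miRNA of intestinal epithelium with the same seed as miR-192-5p, is absent by that name from the precursor list used in the comparisons, but the RefSeq list holds it, and it was flagged as signal outside that list. It had 102 stomach reads there, or 135 RPM of RefSeq reads (95% Wilson interval 111 to 163), above the floor of 3 reads, and stomach was sixth of 15 tissues and 0.49 above the median on the log2(RPM + 1) scale. The small intestine stood at 503409 RPM, the large intestine at 54326 and kidney at 2182, so that mir-215, like mir-192 and mir-194, was far lower in stomach than in both intestine pools. It took so much of the RefSeq reads of the small intestine that levels of all other miRNAs in that pool are lower in that list than in the precursor list. On RefSeq, 45 miRNAs were at least 1 above both intestine pools and 18 at least 1 below, against 39 and 26 on precursors.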

How the results depend on the processing

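The 15-tissue counts depended on the size of difference counted, on scaling and on the RPM added. Precursors at least 1 above the median numbered 48, and 89 with TMM, 74 with DESeq2 size factors, 28 with 10 RPM added, 31 against the mean of the other 14 tissues, 12 at a difference of 2, 100 with mir-143 left out of the totals and 86 with mir-143 and mir-192 left out. At least 1 below were 80, and 24 with TMM, 35 with DESeq2 size factors, 50 with 10 RPM added, 44 with at least 10 stomach counts required, 15 at a difference of 2, 21 with mir-143 and 22 with both left out. Highest in stomach were 2, and 6 with TMM, 5 with mir-143 and 1 with both left out. Above both intestine pools were 39, and 19 with 10 RPM added, 7 at a difference of 2 and 95 with mir-143 left out, and below both 26, and 9 with 10 RPM added, 8 with at least 10 stomach counts, 9 at a difference of 2 and 15 with mir-143 left out. The difference of mir-143 from its median was 2.26, and 3.55 with TMM, 3.29 with DESeq2 size factors, 2.25 on RefSeq, 1.95 on mature miRNAs, 2.25 without the pancreas pool and 2.53 against the mean of the other tissues. With each brain library left out in turn the values stayed at 48, 80, 2 and 2.26. The counts with mir-143 left out, and with stricter counts, change by construction of the totals and of the features kept, and the cause of the other changes was not tested. No paired analysis was possible because the stomach is 1 library and its values come from no test. Depth limits precursors under 10 stomach reads, 124 of the 295 tested, most.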
